A study of Mus musculus with 24 samples.

Results

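Endothelial cells line the blood vessels of the brain, and 36 genes that mark their identity were followed in the brains of mice carrying a tumour. The genes were taken as a list of symbols, from junction and surface proteins through receptors to transcription factors. The list was chosen with earlier results of these data known. Its counts of called members therefore describe the list and are no independent test. All 36 were found among the 47643 gene symbols of the deposited table, of which 24421 were above 0 in at least 1 library. Whole-tissue RNA of 3 brain regions (neocortex, hippocampus and cerebellum) was sequenced. The mice were C57BL/6J males, 4 months old. In each region 4 libraries came from mice injected with LLC cells about 3 weeks earlier (numbered 1 to 4) and 4 from control mice given a mock injection (numbered 14 to 17). LLC is the usual name of Lewis lung carcinoma, a transplantable tumour line of this mouse strain, although the labels give only the letters and the series title names melanoma. The series concerns the wasting caused by a growing tumour. The labels record no transgene, deletion or drug in either group. They call the libraries biological replicates without saying which libraries share an animal, so p-values measure the spread between these samples.

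Brain endothelial cells differ from those of other organs in that tight junctions seal them and few vesicles cross them, and Wnt ligands from neural cells keep them in this state. Their general endothelial identity rests on transcription factors of the ETS and SOXF families, which switch on genes for adhesion proteins such as VE-cadherin and receptors such as TEK. Other genes on the list are enriched in brain vessels (Itm2a, and Gkn3 in arterial endothelium) or mark the fenestrated vessels that brain capillaries normally do not resemble (Plvap). Such transcripts are a small part of whole-tissue RNA, and in bulk samples a change in the number of endothelial cells and a change in RNA per cell cannot be told apart.

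Levels are given in TPM, the share of transcripts after division by length, set to 1 common total for all libraries. This unit keeps no number of reads, so the depth behind each value is unknown. The number of genes at 1 TPM or more ranged from 14368 to 14847 over the libraries, 35 or 36 of the 36 members were at that level, and none of the 276 pairs of libraries held identical values. Gabra6, a receptor subunit of cerebellar granule cells, was at 455 to 986 TPM in cerebellum and at most 0.403 TPM elsewhere. Prox1, which dentate granule cells express, was at 30.9 to 52.7 TPM in hippocampus and 6.91 to 8.77 TPM in neocortex. In cerebellum it was at 18.4 to 35.3 TPM, a range that overlaps that of hippocampus. Single libraries stood apart in marker sums. Cerebellum LLC 1 had a summed level of oligodendrocyte markers of 3570 TPM, against 1799 to 2482 TPM in the other LLC cerebella and 2321 to 2887 TPM in the controls. Choroid plexus markers summed to 8091 TPM in cerebellum LLC 2, against 4229 to 5143 TPM in the other LLC cerebella and 4363 to 5252 TPM in the controls. Summed choroid plexus markers also varied widely in hippocampus, from 48.7 to 4054 TPM in controls and from 49.4 to 7398 TPM in LLC libraries. In neocortex they were at 273 to 1814 TPM in controls and 638 to 2292 TPM in LLC libraries.

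RefSeq start sites of build GRCm38.p6 were available for 19 of the 36 members. Upstream sequence is shown for the 7 of these that were called in the same direction in all 3 regions, and the 250 bases before the start are shown 5′ to 3′ on the gene's strand. Capitals mark matches, on either strand, to 4 motifs: the ETS core forms AGGAAG and CGGAAG, the SOX form ACAATG and the TCF/LEF form CTTTGA. The sequences lie at chr6:87388936-87389185 on the minus strand for Gkn3, chrX:107403361-107403610 on the minus strand for Itm2a, chr19:24673758-24674007 on the plus strand for Tmem252, chr13:60936626-60936875 on the minus strand for Ctla2a, chr3:151437632-151437881 on the plus strand for Adgrl4, chr9:37401722-37401971 on the plus strand for Robo4 and chr2:32646345-32646594 on the plus strand for Eng.
Gkn3: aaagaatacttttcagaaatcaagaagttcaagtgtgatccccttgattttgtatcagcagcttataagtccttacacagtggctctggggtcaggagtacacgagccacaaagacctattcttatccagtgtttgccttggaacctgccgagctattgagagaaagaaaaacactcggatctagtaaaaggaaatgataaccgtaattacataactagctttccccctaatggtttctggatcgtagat
Itm2a: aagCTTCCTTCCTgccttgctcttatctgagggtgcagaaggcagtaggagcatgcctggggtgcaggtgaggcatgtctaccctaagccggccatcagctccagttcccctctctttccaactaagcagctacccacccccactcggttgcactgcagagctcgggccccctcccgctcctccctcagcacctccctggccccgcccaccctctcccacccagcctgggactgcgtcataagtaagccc
Tmem252: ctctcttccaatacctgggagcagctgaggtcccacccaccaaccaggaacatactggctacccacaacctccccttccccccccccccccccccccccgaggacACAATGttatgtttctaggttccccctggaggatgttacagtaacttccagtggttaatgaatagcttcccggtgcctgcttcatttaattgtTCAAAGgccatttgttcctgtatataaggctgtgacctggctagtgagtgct
Ctla2a: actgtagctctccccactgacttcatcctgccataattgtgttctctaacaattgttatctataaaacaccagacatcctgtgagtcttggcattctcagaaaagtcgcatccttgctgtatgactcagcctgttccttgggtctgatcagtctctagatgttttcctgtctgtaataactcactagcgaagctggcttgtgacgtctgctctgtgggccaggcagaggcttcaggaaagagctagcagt
Adgrl4: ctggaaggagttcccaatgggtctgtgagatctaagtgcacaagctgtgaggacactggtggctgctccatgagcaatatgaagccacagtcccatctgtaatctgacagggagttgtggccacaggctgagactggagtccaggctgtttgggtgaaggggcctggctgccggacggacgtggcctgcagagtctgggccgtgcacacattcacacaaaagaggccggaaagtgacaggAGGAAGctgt
Robo4: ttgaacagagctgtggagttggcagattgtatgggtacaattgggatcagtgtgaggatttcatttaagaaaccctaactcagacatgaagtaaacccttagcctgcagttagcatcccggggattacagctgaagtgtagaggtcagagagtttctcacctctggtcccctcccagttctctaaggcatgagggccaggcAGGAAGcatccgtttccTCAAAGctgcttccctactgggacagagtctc
Eng: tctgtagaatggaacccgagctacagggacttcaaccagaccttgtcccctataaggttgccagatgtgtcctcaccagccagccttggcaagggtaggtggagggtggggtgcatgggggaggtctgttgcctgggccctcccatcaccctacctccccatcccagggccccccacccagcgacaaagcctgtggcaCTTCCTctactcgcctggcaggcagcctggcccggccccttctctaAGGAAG
The falling genes Gkn3 and Itm2a lie first, and the rising genes follow. Neither Gkn3 nor Ctla2a had a match to any of the 4 motifs in this window, whereas Itm2a held 2 overlapping matches to AGGAAG on the opposite strand near the upstream end. Adgrl4 and Eng each held a match that ended within 10 bases of the start. Robo4 held AGGAAG at position -49 and the TCF/LEF form at position -32, counted back from the start to the first base of the match. Tmem252 held the SOX form at position -145 and the TCF/LEF form at position -52. Among all 19 members with a window, 12 (63.2%) held AGGAAG, against 29.2% of the 27025 genes with a window of the same length. The corresponding shares were 1 of 19 (5.26%) against 13.8% for CGGAAG, 2 of 19 (10.5%) against 10.9% for ACAATG and 3 of 19 (15.8%) against 14.1% for CTTTGA. A match is a description of letters and not a binding site.

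LLC mice were compared with mock-injected mice within each region. Many of the endothelial genes were higher in LLC mice, and 2 were lower in every region. In neocortex 24 of 36 members rose and 2 fell in limma with Benjamini-Hochberg adjustment over all 14485 genes tested, where 5.59% of all genes rose and 2.95% fell. The hippocampus followed with 17 rising and 2 falling members (2.58% and 1.03% of 14650 genes). One of these 17, Tmem252, had a control mean under the filter of 1 TPM there, and 16 rose among the 35 members whose controls reached it. In cerebellum 7 members rose and 2 fell (1.23% and 1.27% of 14624 genes). The median log2 fold change of the 36 members was 0.49 in neocortex, 0.35 in hippocampus and 0.26 in cerebellum, while that of all tested genes was 0.01, 0.01 and -0.04. Fold changes are differences of log2(TPM + 1), a scale that understates the change of low genes.

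The summed level of the 36 genes showed the same order without a fit. It was 464 to 478 TPM in control and 565 to 670 TPM in LLC neocortex, 461 to 483 TPM and 493 to 663 TPM in cerebellum, and 369 to 411 TPM and 466 to 530 TPM in hippocampus, with no overlap in any region. All 4 LLC libraries lay above all 4 controls for 24 members in neocortex (10.9% of all genes), 12 in cerebellum (6.42%) and 21 in hippocampus (8.95%). All 4 lay below for 2 members in neocortex (6.18% of all genes), 4 in cerebellum (10.3%) and 2 in hippocampus (4.81%). The share of members lying below was close to that of all genes in each region. The 4 in cerebellum were Gkn3, Itm2a, Emcn and Ets1, of which the first pair passed the test.

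**Figure D1:**
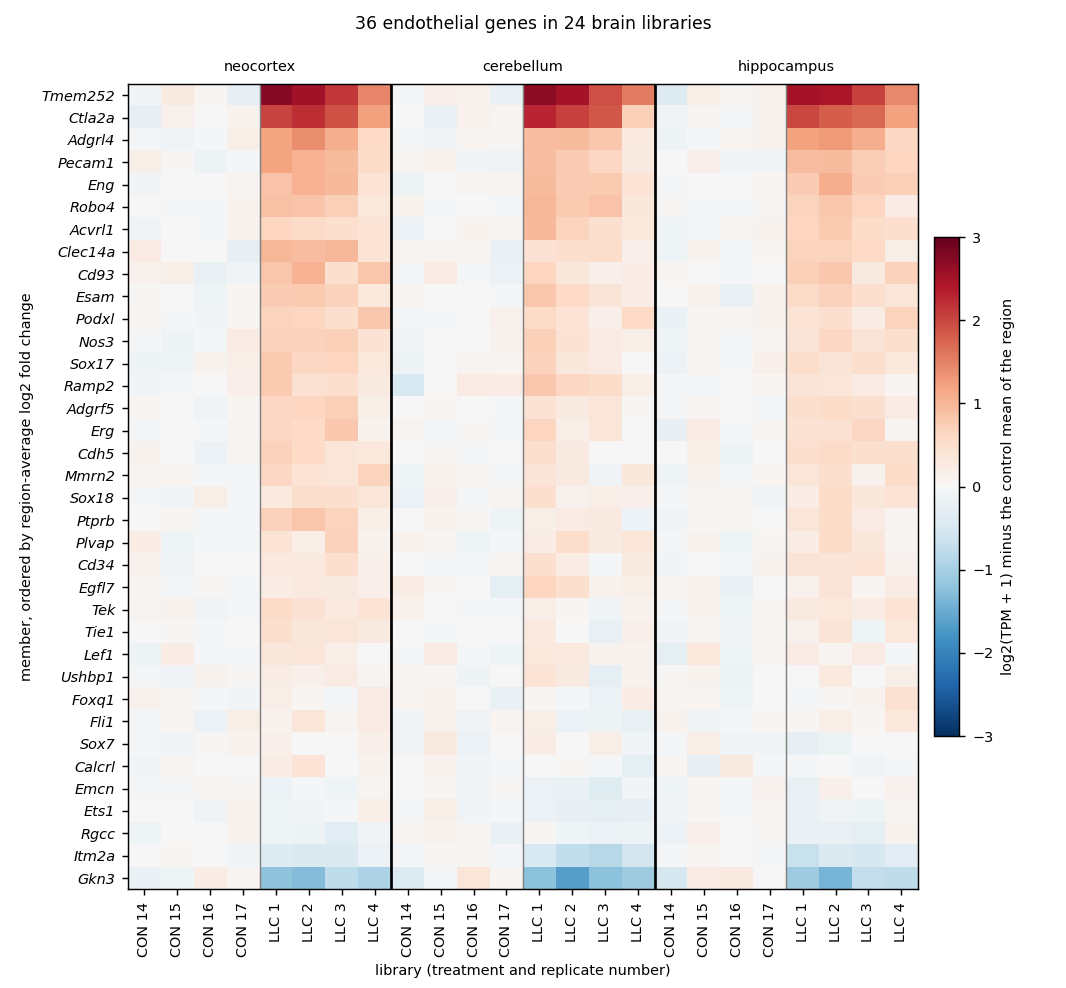
Each cell is log2(TPM + 1) of 1 member in 1 library minus the control mean of that region, with columns grouped by region and members ordered by their change averaged over regions. Red columns of LLC libraries run through most of the upper rows in every region, paler in LLC 4 and in cerebellum. The bottom rows Itm2a and Gkn3 lie below the control mean in all 12 LLC libraries, with Itm2a only faintly blue, most of all in neocortex.

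The counts rested on few libraries, most of all in cerebellum, and calls among all genes moved with the same libraries. Leaving out neocortex LLC 2 lowered the members called there from 26 to 17, where 1.10% of all genes rose and 0.325% fell. In cerebellum the 9 called became 2 without control 14, 1 without control 15, 1 without control 16 and 2 without control 17. They became 1 without LLC 2, 4 without LLC 3 and 14 without LLC 4. Of all genes in cerebellum, 0.0547% rose and 0.00683% fell without control 15, and 0.0410% and 0% without control 16. Without LLC 4 the cerebellar shares were 4.24% and 6.50%. In hippocampus the 19 called became 8 without control 14, 7 without control 15, 8 without control 16 and 9 without control 17. They became 8 without LLC 1, 8 without LLC 2 and 12 without LLC 3. Of all genes in hippocampus, 0.355% rose and 0.0341% fell without control 15, and 0.404% and 0.164% without LLC 2. Without LLC 4 the hippocampal shares were 6.48% and 4.90%. Under all alternatives run for a member (16 or 17, these left-out libraries included), 17 of the 26 members stayed called in neocortex, Tmem252 alone in cerebellum, and in hippocampus 5 of the 18 called members whose controls reached 1 TPM. The 5 were Pecam1, Eng, Acvrl1, Adgrl4 and Ctla2a. The 17 in neocortex were these 5 with Gkn3, Itm2a, Tmem252, Cd93, Esam, Mmrn2, Nos3, Podxl, Robo4, Sox18, Tek and Tie1. In cerebellum, weighting the libraries called 24 members, where 17.4% of all genes rose and 22.0% fell, and fitting all 24 libraries at once called 18, where 7.44% rose and 13.2% fell.

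Called higher in all 3 regions were 7 genes, namely Pecam1, Eng, Acvrl1, Robo4, Adgrl4, Ctla2a and, with the limit given above for its hippocampal call, Tmem252. A further 10 rose in neocortex and hippocampus and 7 in neocortex alone. The last 7 were Tek, Tie1, Ptprb, Erg, Egfl7, Mmrn2 and Ramp2. Another 10 passed in no region, namely Emcn, Sox7, Fli1, Ets1, Ushbp1, Calcrl, Foxq1, Lef1, Plvap and Rgcc. How many of all tested genes show each of these patterns was not counted. A call in one region and not in another is no test of a difference between them, which is given further on.

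The largest changes were those of Tmem252 and Ctla2a. Tmem252, which encodes a small membrane protein, stood in control neocortex 14 to 17 at 1.00, 1.57, 1.19 and 0.778 TPM and in LLC neocortex 1 to 4 at 13.0, 11.2, 8.18 and 4.80 TPM. It was the lowest of the 36 members in control neocortex and rank 21 in LLC neocortex. Its log2 fold change was 2.20 ± 0.24 (SE, n = 4 per group, limma adjusted p = 0.00229), the 12th highest of all 14485 genes tested. In cerebellum the controls were at 0.979, 1.31, 1.23 and 0.805 TPM and the LLC libraries at 12.4, 10.7, 6.95 and 5.06 TPM. The lowest LLC cerebellum was still above the highest control, and the log2 fold change was 2.17 ± 0.23 (limma adjusted p = 0.00821). In hippocampus the gene was at 0.222, 0.838, 0.655 and 0.718 TPM in controls and at 7.97, 7.65, 5.59 and 3.35 TPM in LLC mice. There its control mean of 0.608 TPM lay under the filter of 1 TPM, so it entered the test only through the LLC libraries, and its call (2.11 ± 0.23) supports nothing beyond these levels.

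Ctla2a encodes a secreted inhibitor of cysteine proteases. Its levels in control neocortex 14 to 17 were 6.81, 9.02, 8.22 and 8.89 TPM and in LLC neocortex 1 to 4 were 36.7, 41.4, 33.8 and 20.7 TPM. The ratio of the means was 4.02, and the log2 fold change was 1.85 ± 0.18 (limma adjusted p = 0.00119). In cerebellum it was at 9.23, 7.87, 10.3 and 9.87 TPM in controls and at 49.4, 41.5, 36.6 and 15.9 TPM in LLC libraries, a change of 1.73 ± 0.29 (limma adjusted p = 0.0255). LLC 4 was far below the other LLC cerebella, yet above every control. In hippocampus the controls were at 7.72, 8.86, 7.96 and 9.01 TPM and the LLC libraries at 36.5, 32.0, 30.0 and 20.7 TPM, a change of 1.69 ± 0.14 (limma adjusted p = 0.00183). The near copy Ctla2b moved the same way at a lower level, with means of 1.20 and 2.26 TPM in control and LLC neocortex, 1.59 and 3.14 TPM in cerebellum and 1.27 and 2.41 TPM in hippocampus. How reads common to both copies were divided is not given in the sources used here, so the value of Ctla2a is uncertain. The cerebellar call of Ctla2a was lost with no filter on low values and without any 1 control or without LLC 2 or LLC 3, with changes of 1.55 to 2.07 over the left-out libraries.

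**Figure D2:**
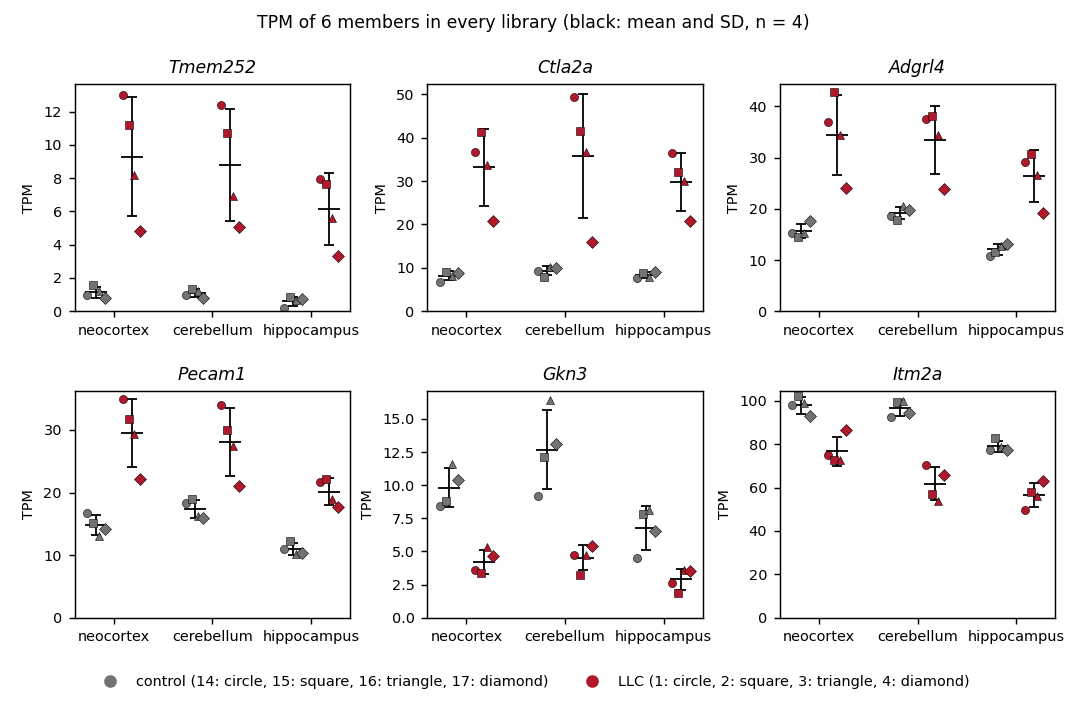
TPM of Tmem252, Ctla2a, Adgrl4, Pecam1, Gkn3 and Itm2a in each of the 24 libraries, by region, with grey symbols for controls, red for LLC and black bars for the mean and SD of 4. LLC and control symbols are fully separated in every panel, LLC 4 (diamond) lies lowest among LLC libraries for Tmem252, Ctla2a, Adgrl4 and Pecam1, and Gkn3 and Itm2a run the other way.

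Among the 9 adhesion and surface glycoproteins, 8 rose in neocortex, 7 in hippocampus and 1 in cerebellum. Pecam1 encodes the junctional adhesion molecule CD31. In hippocampus it stood at 11.0, 12.3, 10.2 and 10.3 TPM in controls 14 to 17 and at 21.6, 22.2, 18.9 and 17.7 TPM in LLC 1 to 4. These groups did not overlap. Pecam1 rose there by 0.82 ± 0.09 (limma adjusted p = 0.00493), and the changes in neocortex and cerebellum were 0.94 ± 0.12 and 0.65 ± 0.13 (limma adjusted p = 0.00459 and 0.0399). Podxl encodes podocalyxin, an anti-adhesive sialomucin of the luminal surface. In neocortex it was at 25.4, 23.8, 22.9 and 25.6 TPM in controls and at 39.4, 38.8, 34.3 and 43.6 TPM in LLC mice, where LLC 4 was the highest and not the lowest. Its change there was 0.65 ± 0.07 (limma adjusted p = 0.00186).

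VE-cadherin, the main adhesion protein of endothelial adherens junctions, is encoded by Cdh5. Its mean went from 12.3 ± 1.15 to 17.7 ± 2.34 TPM in neocortex (SD, n = 4), from 7.70 ± 0.773 to 11.3 ± 0.386 TPM in hippocampus and from 14.2 ± 0.279 to 16.6 ± 3.10 TPM in cerebellum. It rose by 0.48 and 0.51 in the first pair of regions, and in cerebellum the value was 0.19 ± 0.11 with overlapping groups. Esam, another junctional protein, rose by 0.64 in neocortex and 0.53 in hippocampus and was 0.50 ± 0.12 in cerebellum (limma adjusted p = 0.0528), where all LLC libraries were nonetheless above all controls. Clec14a and Cd93, paired C-type lectins of the endothelial surface, rose by 0.83 and 0.79 in neocortex and 0.52 and 0.62 in hippocampus. The hippocampal calls were lost in 11 of 16 alternatives for Clec14a and 7 of 16 for Cd93. Mmrn2, the matrix ligand of these lectins, rose by 0.52 in neocortex and was 0.38 ± 0.11 in hippocampus (limma adjusted p = 0.0805). Emcn, a sialomucin of capillary and venous endothelium, was the member of this group that passed nowhere, at -0.07, -0.21 and 0.02 in neocortex, cerebellum and hippocampus.

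Both genes of the receptor complex for BMP9, the blood-borne ligand that promotes vessel quiescence, rose in all 3 regions. Eng encodes the co-receptor endoglin. In cerebellum it was at 14.7, 16.2, 17.4 and 17.2 TPM in controls and at 32.4, 28.6, 28.7 and 22.2 TPM in LLC libraries, and in hippocampus at 11.8, 12.5, 12.5 and 12.9 TPM and at 21.9, 27.6, 21.6 and 20.9 TPM. In both regions every LLC library was above every control. The changes were 0.72 ± 0.11 and 0.83 ± 0.09 (limma adjusted p = 0.0212 and 0.00442), and 0.82 ± 0.12 in neocortex (limma adjusted p = 0.00668). Acvrl1, the signalling receptor ALK1, rose by 0.54, 0.61 and 0.63 in neocortex, cerebellum and hippocampus. The 3 genes of the angiopoietin receptor system (Tek, the receptor TIE2, its partner Tie1 and the phosphatase Ptprb) rose in neocortex by 0.42, 0.36 and 0.59. In cerebellum their values were 0.07, 0.07 and 0.13 and in hippocampus 0.30, 0.17 and 0.30, none past the threshold.

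The adrenomedullin receptor combines the accessory protein Ramp2 with the receptor Calcrl. Ramp2 rose by 0.50 ± 0.10 in neocortex and was 0.55 ± 0.17 and 0.27 ± 0.08 in cerebellum and hippocampus (limma adjusted p = 0.105 and 0.0805), and Calcrl was at 0.19 ± 0.09, -0.07 ± 0.10 and -0.05 ± 0.11. Adgrl4 and Adgrf5 are adhesion G protein-coupled receptors of endothelium. Adgrl4 went from 15.6 ± 1.40 to 34.5 ± 7.80 TPM in neocortex, from 19.2 ± 1.14 to 33.5 ± 6.57 TPM in cerebellum and from 12.1 ± 1.07 to 26.4 ± 5.13 TPM in hippocampus. It rose in all 3 regions, by 1.07, 0.75 and 1.05, and moved from rank 9 to rank 4 among the 36 members in neocortex. Adgrf5 rose by 0.54 and 0.44 in neocortex and hippocampus and was 0.28 in cerebellum. Robo4, a receptor that stabilises vessels, rose by 0.69, 0.75 and 0.59 in neocortex, cerebellum and hippocampus, and Nos3, the endothelial nitric oxide synthase, by 0.64 in neocortex and 0.47 in hippocampus. The Robo4 call was lost in 7 of 17 alternatives in cerebellum and in 9 of 17 in hippocampus. That of Nos3 was lost in 7 of 17 in hippocampus. Egfl7, a secreted matrix protein, rose in neocortex by 0.23, a call lost in 6 of 17 alternatives (limma adjusted p up to 0.224). Its ratio of LLC to control means was 1.18 in neocortex, 1.31 in cerebellum and 1.16 in hippocampus, with overlapping groups in cerebellum and hippocampus. Rgcc and Ushbp1 passed in no region.

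Of the 8 transcription factors, 3 rose in neocortex, 2 in hippocampus and 0 in cerebellum. Of the 3 ETS factors, Erg rose in neocortex (0.53 ± 0.13), a call lost in 10 of 17 alternatives (limma adjusted p up to 0.112), and Fli1 and Ets1 passed in none of the 3 regions, with values from -0.23 to 0.20. Of the SOXF factors, Sox17 and Sox18 rose in neocortex by 0.59 and 0.42 and in hippocampus by 0.44 and 0.38. The hippocampal calls were lost in 10 of 16 alternatives for Sox17 and 9 of 17 for Sox18, and the neocortical call of Sox17 in 3 of 16. Sox7 was at 0.07, 0.08 and -0.10. Lef1, the nuclear partner of β-catenin, was at 0.23, 0.20 and 0.13 and Foxq1, a forkhead factor linked to the blood-brain barrier, at 0.11, 0.01 and 0.14. None of these 6 values passed. Plvap, the diaphragm protein of fenestrated vessels, was at 0.35, 0.34 and 0.29 in neocortex, cerebellum and hippocampus. It passed in no single region (limma adjusted p = 0.0936, 0.0623 and 0.14) but rose by 0.33 ± 0.07 in the region average described below (limma adjusted p = 0.0164). Among LLC libraries Plvap was highest in neocortex LLC 3 (17.6 TPM), cerebellum LLC 2 (33.3 TPM) and hippocampus LLC 2 (15.6 TPM). These also had the highest choroid plexus sums among the LLC libraries of their regions. Control neocortex 14 had the highest Plvap of its group (12.5 TPM) and the lowest such sum. The part of choroid plexus was not tested.

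**Figure D3:**
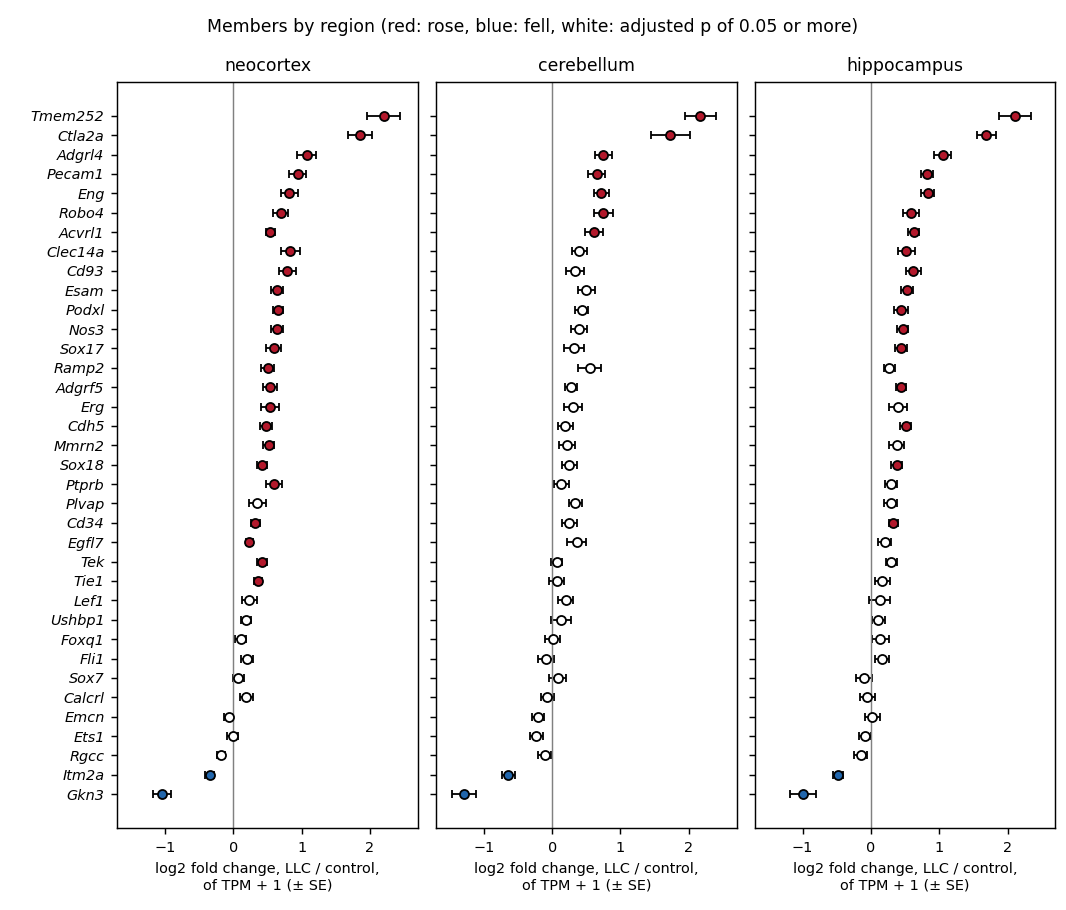
Log2 fold change of TPM + 1, LLC against control, with its SE for each of the 36 members in 3 regions (n = 4 per group), coloured where the limma adjusted p was below 0.05. Red points form a band between 0.23 and 1.07 with Ctla2a and Tmem252 beyond it, and Gkn3 and Itm2a are the blue points left of 0 in each panel.

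Gkn3 and Itm2a fell in all 3 regions. Gkn3 encodes a secreted gastrokine that in brain marks arterial endothelium. In neocortex it was at 8.43, 8.83, 11.6 and 10.4 TPM in controls 14 to 17 and at 3.62, 3.35, 5.33 and 4.63 TPM in LLC 1 to 4. In cerebellum it was at 9.17, 12.1, 16.4 and 13.1 TPM and at 4.76, 3.25, 4.74 and 5.43 TPM. In hippocampus it was at 4.48, 7.82, 8.14 and 6.52 TPM and at 2.63, 1.88, 3.60 and 3.50 TPM. The lowest control was above the highest LLC library in every region, and LLC 2 was the lowest of all in each. The log2 fold changes were -1.05 ± 0.13, -1.29 ± 0.17 and -0.99 ± 0.19 (limma adjusted p = 0.00348, 0.0155 and 0.0299), the 7th, 21st and 19th largest falls of all genes tested. The LLC means were 0.431, 0.358 and 0.431 of the control means. Gkn3 moved from rank 18 to rank 31 of the 36 members in neocortex and from 13 to 31 in cerebellum.

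Itm2a encodes a membrane protein with a BRICHOS domain and was the most abundant of the 36 in all 6 groups. In neocortex it was at 97.9, 102, 98.8 and 92.9 TPM in controls and at 74.9, 72.5, 72.7 and 86.4 TPM in LLC mice. In cerebellum it was at 92.7, 99.6, 100 and 94.2 TPM and at 70.5, 57.2, 53.9 and 65.6 TPM. In hippocampus it was at 77.2, 82.8, 78.7 and 77.2 TPM and at 49.5, 58.0, 55.9 and 63.2 TPM. The groups were separate in every region, and LLC 4 was nearest to the controls in neocortex and hippocampus. The changes were smaller than those of Gkn3, at -0.35 ± 0.06, -0.64 ± 0.09 and -0.48 ± 0.07 (limma adjusted p = 0.011, 0.015 and 0.0135). In neocortex both genes passed under all 17 alternatives. In cerebellum the call of Gkn3 was lost without control 15, 16 or 17 or LLC 2, and that of Itm2a without control 14, 15 or 16 or LLC 2. In hippocampus that of Gkn3 was lost without control 15, 16 or 17 or LLC 1 or 2, with no filter and with the replicate block, and that of Itm2a without control 15. Over all left-out libraries the change of Gkn3 was -1.43 to -1.17 in cerebellum and -1.14 to -0.85 in hippocampus, and that of Itm2a was -0.71 to -0.58 and -0.53 to -0.42.

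Within each library, the falling genes were also set against Cdh5, a marker of endothelial cells. Relative to Cdh5, the log2 ratio of Gkn3 was -0.33 ± 0.33 in control and -2.08 ± 0.49 in LLC neocortex (SD, n = 4), -0.19 ± 0.36 and -1.87 ± 0.48 in cerebellum, and -0.22 ± 0.41 and -2.01 ± 0.49 in hippocampus. That of Itm2a was 3.00 ± 0.17 and 2.12 ± 0.28, 2.77 ± 0.06 and 1.91 ± 0.22, and 3.36 ± 0.11 and 2.32 ± 0.16. For both genes every LLC library lay under every control of its region. Emcn, which passed no test in absolute level, also lay lower against Cdh5 in all LLC libraries of each region, with means of -1.76 and -2.37 in neocortex, -1.66 and -2.12 in cerebellum and -1.58 and -2.12 in hippocampus. Rgcc did so in neocortex (1.44 and 0.74) and hippocampus (2.13 and 1.41), while in cerebellum the ranges of 0.75 to 1.04 and 0.46 to 0.80 overlapped. Cdh5 was itself higher in LLC means, which enters each ratio, and no test was made on them. Tmem252 and Ctla2a went the other way, with LLC ratios above every control ratio in each region.

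**Figure D4:**
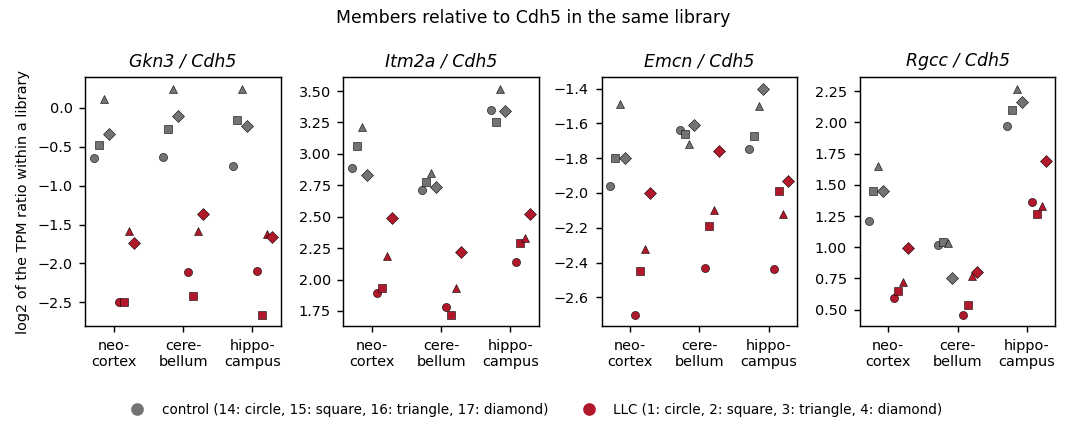
Log2 of the TPM of Gkn3, Itm2a, Emcn and Rgcc divided by the TPM of Cdh5 in the same library, with grey symbols for controls and red for LLC. For Gkn3, Itm2a and Emcn all LLC libraries lie under all controls of their region, and for Rgcc the cerebellar symbols meet.

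Whether the LLC effect differed between regions was tested on the difference itself, in limma over all 24 libraries with Benjamini-Hochberg adjustment. No member passed for cerebellum minus neocortex, where 0.0798% of all genes were higher and 0.566% lower. None passed for hippocampus minus cerebellum (0.0504% and 0.0432%) or for hippocampus minus neocortex (0% and 0%). The smallest adjusted p of a member was 0.133, for Tek in cerebellum minus neocortex, at -0.35 ± 0.10. At an unadjusted p under 0.05 there were 7 members in that comparison (Tek, Ptprb, Itm2a, Cd93, Clec14a, Tie1 and Fli1), 2 in hippocampus minus cerebellum (Cdh5 and Tek) and 0 in hippocampus minus neocortex. All 7 lay lower in cerebellum, by values from -0.46 to -0.29 with SEs of 0.10 to 0.19. The differences of all 36 members ranged from -0.46 to 0.13, with a median of -0.22 against -0.06 for all genes. With library weights 11 members were called for cerebellum minus neocortex, all lower, where 3.69% of all genes were higher and 11.2% lower. With the title number as a block 1 member (Tek) was called, where 0.247% of all genes were higher and 1.68% lower. Without neocortex LLC 4 there was 1 (Ptprb), where 0.0944% of all genes were higher and 0.646% lower.

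The region average took, for each replicate number, the mean over regions of log2(TPM + 1). In it 24 members rose and 2 fell, where 7.66% of all 14873 genes rose and 5.45% fell, and the median of the members was 0.36. Compared with neocortex alone, Plvap was added and Tie1 was not called (0.20 ± 0.07, limma adjusted p = 0.0712). Without control 16 the count of members called was 17, where 2.19% of all genes rose and 0.934% fell.

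Rising members were not equally raised in the 4 LLC numbers. LLC 4 was the lowest LLC library for 19 of the 24 rising members in neocortex, 7 of 7 in cerebellum and 13 of 17 in hippocampus. The 17 include Tmem252, with the limit given above. How often LLC 4 was lowest among all rising genes was not counted. Without LLC 4, 15.2% of all genes rose and 11.3% fell in neocortex, 4.24% and 6.50% in cerebellum, and 6.48% and 4.90% in hippocampus. The median difference of the 36 members from the control mean was 0.62, 0.49, 0.48 and 0.27 in LLC neocortex 1 to 4, 0.47, 0.28, 0.17 and 0.16 in cerebellum, and 0.38, 0.47, 0.27 and 0.28 in hippocampus. Podxl, Cd93 and Mmrn2 were among the 5 rising members in neocortex that departed from this order, with LLC 3 as their lowest. In cerebellum LLC 1, the library apart in oligodendrocyte markers, was the highest for 6 of the 7 rising members. Its median over all tested genes was -0.12. Without it 12 members were called, where 4.45% of all genes rose and 4.39% fell.

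Markers of other cell types moved in the same libraries. The 6 erythrocyte genes summed to 1124 to 1506 TPM in control and 3565 to 15180 TPM in LLC neocortex, 1216 to 1624 TPM and 4250 to 15580 TPM in cerebellum, and 729 to 1181 TPM and 2622 to 10399 TPM in hippocampus, and in each region LLC 4 was the lowest of the LLC libraries. All tested erythrocyte genes rose in each region (6 of 6, 6 of 6 and 5 of 5). The 8 neutrophil genes summed to 4.78 to 9.41 TPM and 40.0 to 198 TPM in neocortex, 3.07 to 15.3 TPM and 38.5 to 148 TPM in cerebellum, and 1.13 to 10.5 TPM and 24.4 to 115 TPM in hippocampus, with LLC 4 the highest. Of the tested ones, 3 of 5, 3 of 4 and 3 of 3 rose. The filter took the mean of LLC and control libraries together, so neutrophil genes low in controls could enter through the LLC libraries. These counts therefore support nothing beyond the sums. Lymphocyte genes were at or near 0, with sums of at most 2.81 TPM and Cd3e and Cd3g at 0 in all 4 control hippocampi. Platelet genes summed to 16.4 to 17.5 TPM in control and 18.0 to 22.1 TPM in LLC neocortex, and 1 of 4 tested (Ppbp) rose there and 0 of 2 in the other regions.

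Cells of the vessel wall and other endothelial genes gave the following values. Of 9 pericyte and smooth muscle genes, 4 rose in neocortex, 3 in hippocampus and 1 in cerebellum, and their sum was 244 to 272 TPM in control and 298 to 364 TPM in LLC neocortex, 302 to 327 TPM and 323 to 428 TPM in cerebellum, and 203 to 235 TPM and 250 to 296 TPM in hippocampus. The 6 endothelial markers that are not members summed to 211 to 235 TPM in control and 291 to 416 TPM in LLC neocortex, 250 to 268 TPM and 289 to 455 TPM in cerebellum, and 163 to 192 TPM and 235 to 308 TPM in hippocampus. Of these, Flt1, Kdr, Ly6c1, Abcb1a and Cldn5 rose in neocortex and hippocampus and Ly6c1 in cerebellum. No microglial gene of 5 passed in any region. The 5 summed to 289 to 306 TPM in control neocortex and to 227, 255, 213 and 315 TPM in LLC neocortex 1 to 4. In hippocampus the sums were 270 to 294 TPM in controls and 224, 235, 203 and 310 TPM in LLC 1 to 4. In cerebellum they were 142 to 153 TPM in controls and 117 to 146 TPM in LLC libraries. Of 5 astrocyte genes, Aldoc and Slc1a3 rose and Aqp4 fell in neocortex, Aldoc rose and Aqp4 fell in cerebellum, and Aldoc rose in hippocampus. Summed, they were at 1135 to 1220 TPM in control and 1326 to 1392 TPM in LLC neocortex. In hippocampus the astrocyte sums were 1115 to 1202 TPM and 1251 to 1289 TPM, and in cerebellum 2569 to 2690 TPM and 2587 to 3009 TPM, which overlap. The oligodendrocyte genes Mag and Mog fell in neocortex, where the summed level of that list was 2026 to 2172 TPM in controls and 1695 to 1881 TPM in LLC libraries. Of 5 neuronal genes, Stmn2 fell in neocortex and hippocampus and Rbfox3 rose in hippocampus. Meningeal fibroblast genes summed to 110 to 142 TPM in control and 45.9 to 107 TPM in LLC hippocampus, and among them Lum fell in cerebellum and hippocampus and Pdgfra rose in neocortex. No choroid plexus gene of 6 passed. The part of these cell types in the members' changes was not tested.

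Other genes of the members' pathways were counted from lists. Of 5 VEGF receptors and co-receptors, Flt1, Kdr and Flt4 rose in neocortex (0.85, 1.09 and 0.62) and hippocampus (0.79, 0.83 and 0.54), and 0 of 5 passed in cerebellum. Of 21 genes of Wnt signalling at the barrier, 3 rose in neocortex and 0 in cerebellum, while 1 rose and 1 fell in hippocampus. The receptor partner Reck rose by 0.44 and 0.36 in neocortex and hippocampus, its co-receptor Adgra2 by 0.26 and Lrp5 by 0.32 in neocortex, and the ligand Wnt7b fell by 0.42 in hippocampus. Of 7 tested genes of the angiopoietin pathway other than the members, the ligand Angpt2 rose in neocortex by 1.16 ± 0.26, Tnip2 rose in hippocampus by 0.28, and none passed in cerebellum. Of 10 tested genes of the BMP9 pathway, the inhibitory Smad6 (1.01 and 0.74) and the target Id1 (0.55 and 0.70) rose in neocortex and hippocampus, and the receptor Bmpr2 fell in cerebellum by 0.46. The ligand adrenomedullin (Adm) rose in neocortex by 1.76 ± 0.36, and its receptor partner Ramp3 rose in hippocampus by 0.43. Of other ETS and endothelial transcription factors, 4 of 15 rose in neocortex, 0 of 15 in cerebellum and 5 of 13 in hippocampus, among them Epas1, Elk3 and Gata2 in both.

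Genes most like the falling pair were sought by Pearson's r over the 24 libraries after centring on each region's mean, among 12553 genes. For Gkn3 they were Hspd1 (0.91), Zc3h15 (0.91), Ube2v2 (0.90), Fam8a1 (0.89) and Ube2n (0.89), and for Itm2a they were Ptn (0.95), Stip1 (0.95), Akr1c14 (0.94), Cyp51 (0.94) and Ube2v2 (0.93). These points share the treatment groups and the scaling of each library, so r is a description. Hspd1, a mitochondrial chaperonin, fell by 0.23, 0.32 and 0.21 in neocortex, cerebellum and hippocampus, and the ubiquitin-conjugating variant Ube2v2, which stands on both lists, by 0.26, 0.33 and 0.24. Cyp51, an enzyme of sterol synthesis, fell by 0.71, 0.60 and 0.64.

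In control mice the members also differed between regions, with directions that depended on the scaling. On the TPM scale 16 of 36 members were higher and 5 lower in cerebellum than in neocortex, where 61.0% of all genes were higher and 24.4% lower and the median of all genes was 0.31. After median-ratio scaling the counts were 1 higher and 15 lower (40.4% and 40.5% of all genes), and after quantile normalization 2 and 15 (43.8% and 36.7%). In all 20 members changed sign over the 3 scalings. Called in 1 direction under all 3 were Plvap, higher in cerebellum (22.8 against 10.6 TPM in the control means, log2 difference 1.04, and 0.68 to 0.73 under the other scalings), and Cd34, Egfl7, Eng, Acvrl1 and Rgcc, lower. Summed choroid plexus markers were also higher in control cerebellum, at 4363 to 5252 TPM against 273 to 1814 TPM in control neocortex. Their part in the Plvap difference was not tested. Cd34, a sialomucin of vessels that is also found on other cells, was at 12.3 ± 0.580 TPM in control cerebellum and 41.9 ± 2.87 TPM in control neocortex, a difference of -1.69 (limma adjusted p = 2.01e-10).

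Many members were lower in control hippocampus than in neocortex. Of 35 tested, 2 were higher and 19 lower, where 40.5% of all genes were higher and 21.3% lower, and the same 19 were lower under all 3 scalings. Tmem252 was not tested, being under 1 TPM on average. Among the 19 were Acvrl1 (-0.79), Cdh5 (-0.61), Cd34 (-0.56), Eng (-0.55), Gkn3 (-0.50) and Itm2a (-0.31). Ramp2 was the 1 member higher under all 3, at 18.2 ± 0.676 against 10.8 ± 0.860 TPM (0.71, limma adjusted p = 2.34e-06). Against cerebellum, hippocampus had 4 members higher and 26 lower of 35, where 26.6% of all genes were higher and 55.3% lower and the median of all genes was -0.23. Both other scalings gave 4 higher and 17 lower, where 39.1% and 39.0% of all genes were called after median-ratio scaling and 35.8% and 42.6% after quantile normalization. The 4 were Cd34, Egfl7, Ramp2 and Rgcc, and 15 members were lower under all 3 scalings, with Plvap (-1.07) and Gkn3 (-0.83) showing the largest differences on the TPM scale.

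**Figure D5:**
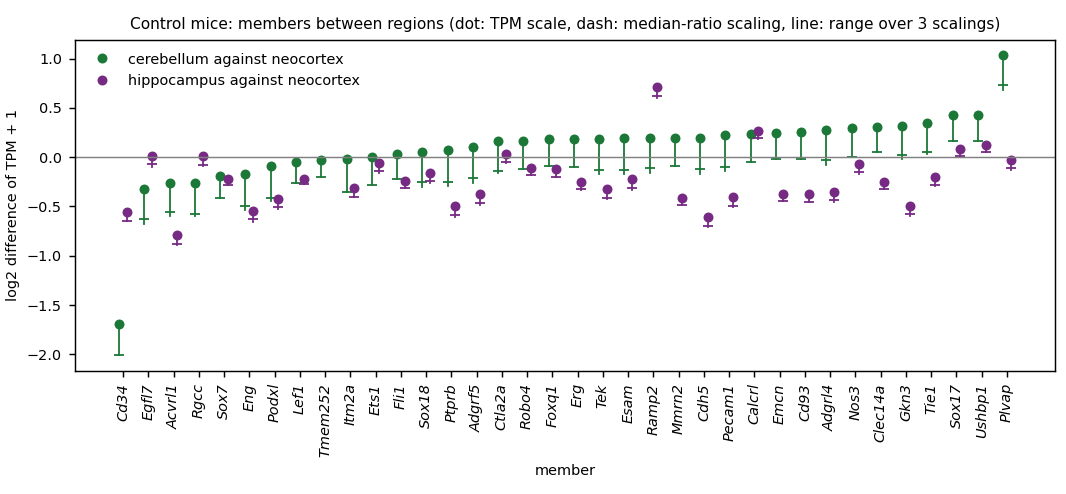
Log2 difference of TPM + 1 between control regions for each member, with dots for the TPM scale, dashes for median-ratio scaling and lines for the range over 3 scalings. Green lines (cerebellum against neocortex) cross 0 for many members but not for Cd34 and Plvap, and purple dots (hippocampus against neocortex) lie mostly under 0 with Ramp2 at 0.71.

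Reads could not be assigned to 1 gene with equal confidence for all members. In the GENCODE M21 annotation of mm10, 16 of the 36 overlapped another gene. Protein-coding genes lay on the opposite strand over Eng (Fpgs), Egfl7 (Agpat2), Nos3 (Atg9b), Plvap (Gtpbp3) and Foxq1 (A530084C06Rik), and on the same strand over Ramp2 (Vps25), Egfl7 (Gm20532) and Ctla2a (Gm49393 and Gm49391). The library kit keeps the strand, but whether counting used it is not given in the sources used here. Pecam1 (chr11:106654217-106750628), Adgrl4 (chr3:151437887-151545086), Robo4 (chr9:37401897-37415115), Tmem252 (chr19:24674008-24682233), Gkn3 (chr6:87383256-87388935) and Itm2a (chrX:107397099-107403376) overlapped none.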

How the data were processed

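Per the labels' protocols, Trizol-extracted RNA went into TruSeq stranded mRNA libraries for Illumina sequencing. TPM values of the 24 libraries, computed by the authors, were deposited as a single table. The submitters' processing notes name mm10. Which aligner, counting tool and annotation were used is not stated in the labels or notes.

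Libraries were grouped by region and treatment from their titles. Genes averaging 1 TPM or more in the libraries compared were kept, and log2(TPM + 1) was fitted per region with limma 3.58.1 (lmFit, eBayes with trend, R 4.3.3), using two-sided p-values adjusted by Benjamini-Hochberg and a threshold of 0.05. The region average and the differences between regions were fitted as described with their results. The scripts were tested on simulated data. Alternatives were a pseudocount of 0.1, a filter at 5 TPM, no filter, scaling by median ratios or by quantiles, library weights, robust eBayes, 1 fit of all libraries, a replicate block and each replicate left out. The members and lists were chosen with earlier results of these data known. Named genes were all members, with every library given for Gkn3, Itm2a and, per region, the 3 rising members with the smallest p, at most 4 called genes of each other list by p, and the 5 genes most like Gkn3 and Itm2a. Promoter windows came from RefSeq. Not every marker gene that passed is reported here. Tables and plots used Python 3.11.15 with matplotlib 3.10.9.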

Additional observations from a re-analysis of the deposited data

Results flagged for a closer look

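A library was called apart when its gap to the nearest of the other libraries, as a share of the group's range, exceeded Dixon's 95% critical value for 4 samples. Of 216 groups of members, 12 held such a library, and chance gives about 1 in 20. LLC 4 accounted for 5 of them. In neocortex LLC 4 was low for Nos3 at 9.13 TPM and for Clec14a at 4.82 TPM. In hippocampus LLC 4 was low for Cd34 at 30.8 TPM and for Clec14a at 3.14 TPM and high for Rgcc at 35.8 TPM. Hippocampus LLC 2 was high for Eng at 27.6 TPM. Cerebellum LLC 1 was high for Sox18 at 18.1 TPM and for Fli1 at 3.96 TPM. Among controls, cerebellum 16 was low for Emcn at 4.20 TPM, cerebellum 17 low for Clec14a at 3.71 TPM, cerebellum 15 high for Ets1 at 6.29 TPM and neocortex 16 high for Sox18 at 13.5 TPM.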

How the results depend on the processing

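In the comparisons of LLC with control in each region, no called member changed direction under an alternative. Between control regions, signs changed with the scaling, as given above. In neocortex 26 members were called, 24 to 30 under the settings other than left-out replicates and 17 to 28 with each replicate left out. In cerebellum the 9 called became 4 with no filter, 24 with library weights and 18 with all 24 libraries in 1 fit, and 1 to 14 with each replicate left out. In hippocampus the 19 called became 10 with no filter and 7 to 23 with each replicate left out. With no filter 0.227% of all genes rose and 0.0890% fell in cerebellum, and 0.722% and 0.247% in hippocampus. The region average gave 17 to 27 with each replicate left out. The difference of LLC effects, cerebellum minus neocortex, gave 11 called members with library weights and 0 to 1 with each library left out. Calls among all genes moved under the same settings. The cause of these shifts was not tested.

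The number in the description, shared by LLC and control libraries, was used as a replicate block. The deviations of libraries with the same number correlated at -0.1 to 0.06 in neocortex, 0.01 to 0.46 in cerebellum and -0.25 to 0.16 in hippocampus, and not every pair in a region was over 0.1, so the numbers were not taken to pair the libraries. By title number the libraries of 2 regions correlated at 0.12 to 0.26 (control cerebellum with neocortex) and, over the other sets, between -0.09 and 0.63. With the replicate block 25 members were called in neocortex, 10 in cerebellum, 12 in hippocampus and 25 in the region average. Of all genes 3.15% rose and 1.27% fell in neocortex, 1.89% and 3.06% in cerebellum, and 0.949% and 0.273% in hippocampus. In the region average 6.99% rose and 6.80% fell. The title number as a replicate block called 1 for cerebellum minus neocortex, where 0.247% of all genes were higher and 1.68% lower. With unknown depth, the counting error of members at low levels, such as Lef1 and Sox7, is unknown too.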

Other observations

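Markers of vessel segments that are not members were also followed. Of 7 tested venous markers, 5 rose in neocortex, 3 in cerebellum and 2 in hippocampus. Vwf, the clotting factor stored in endothelial granules, was at 2.07, 2.59, 2.65 and 2.84 TPM in control and at 18.7, 21.2, 12.9 and 9.87 TPM in LLC hippocampus, and rose by 2.54 ± 0.25, 2.04 ± 0.22 and 2.19 ± 0.20 in neocortex, cerebellum and hippocampus (limma adjusted p = 0.00119, 0.00821 and 0.0021). For Icam1, to which leukocytes adhere, the rises were 1.28, 1.16 and 1.00. Of 13 tested arterial markers, 5 rose in neocortex, 1 in cerebellum and 2 in hippocampus. The elastic fibre protein Fbln5 rose in all 3 regions, by 0.82, 1.51 and 0.98, and the phosphatase Alpl fell in neocortex by 0.64. Of 8 capillary markers, the chemokine Cxcl12 rose in all 3 regions, by 1.00, 0.73 and 0.87, and Slc16a1, a lactate carrier, in neocortex by 0.44. Of the markers of tip cells and fenestrated vessels, 4 of 7 rose in neocortex, 2 of 7 in cerebellum and 0 of 6 in hippocampus, Plaur and Igfbp3 in neocortex and cerebellum alike.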
